A study of Mus musculus with 26 samples.

Results

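The 9 genes described here encode calcium-binding proteins of 2 families, the annexins Anxa1, Anxa2, Anxa3, Anxa4 and Anxa5 and the S100 proteins S100a4, S100a6, S100a10 and S100a11, some of which are their binding partners. They were chosen by symbol with earlier results of these libraries known, so their levels and fold changes in these groups are given as a description. Counts of members past a threshold stand beside the share of all genes past it, and nothing is read from them. Each symbol matched 1 Ensembl gene in a table of 55487 genes. RNA was sequenced from macrophages of mouse lung (source tissue and cell type as labelled), in 7 groups that came either without treatment or after lipopolysaccharide (LPS), a component of the Gram-negative bacterial wall that was given by the intratracheal route and inflames the lung. Resident alveolar macrophages (AM), the phagocytes that live in the air spaces, were taken with no LPS (day 0, n = 3) and 1 day (n = 4), 3 days (n = 3) and 7 days (n = 4) after LPS. Bone marrow-derived macrophages (BM), which enter the lung during inflammation, were taken 1 day (n = 5), 3 days (n = 4) and 7 days (n = 3) after LPS, and there was no day 0 group of these cells. The labels give no genotype, strain, sex, sorting gate or LPS dose, and the sole word on age is "Young", in the descriptions of the day 0 libraries. Whether each replicate comes from its own animal is not stated, so the spread between libraries, and every p-value below, may be partly technical. Libraries are named by cell type, day and replicate, as in AM_day0.1.

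Annexins bind the phospholipids of membranes when calcium rises, and they take part in membrane repair, vesicle traffic and the shaping of the actin cortex. S100 proteins are small calcium sensors that work mostly as dimers and change the activity of the proteins they bind. Anxa2 and S100a10 (p11) form a heterotetramer that lies under the plasma membrane and, at the cell surface, binds plasminogen and its activator. Anxa1 can pair with S100a11, and once secreted it acts on formyl peptide receptors to limit the entry of neutrophils and to promote the uptake of dying cells. In lung macrophages these proteins are known from phagocytosis, from the resolution of inflammation and from the control of fibrin on the alveolar surface.

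The annexin genes are spread over the genome, whereas the S100 genes cluster. In the GENCODE M21 annotation of GRCm38, Anxa1 lies on chromosome 19 (20373428 to 20390944), Anxa2 on chromosome 9 (69453620 to 69491795), Anxa3 on chromosome 5 (96793339 to 96845966), Anxa4 on chromosome 6 (86736840 to 86793584) and Anxa5 on chromosome 3 (36448923 to 36475894). The 4 S100 genes are among the 14 S100a genes of chromosome 3. S100a4 (90603771 to 90606045) and S100a6 (90612882 to 90624181) flank S100a5 on the same strand. S100a11 (93520488 to 93526287) and S100a10 (93555080 to 93564643) are next to each other on the plus strand, 28792 bases apart.

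Promoters of 3 members are printed because their transcripts differ in pattern: Anxa2 and S100a11 were higher in the resident cells at each matched day, and S100a6 had a higher mean in the recruited cells. The sequences come from RefSeq (GRCm38.p6), where 7 of the 9 members had an entry. Each runs 5′ to 3′ on the plus strand and ends at the base before the annotated gene, at chr9:69453433-69453619, chr3:93520246-93520487 and chr3:90612644-90612881. Capitals mark matches on either strand to any of 9 short motifs, which are named with the matches below.
Anxa2: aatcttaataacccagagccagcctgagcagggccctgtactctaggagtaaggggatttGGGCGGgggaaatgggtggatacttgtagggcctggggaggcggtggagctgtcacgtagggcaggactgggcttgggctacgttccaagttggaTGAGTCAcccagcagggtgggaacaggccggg
S100a11: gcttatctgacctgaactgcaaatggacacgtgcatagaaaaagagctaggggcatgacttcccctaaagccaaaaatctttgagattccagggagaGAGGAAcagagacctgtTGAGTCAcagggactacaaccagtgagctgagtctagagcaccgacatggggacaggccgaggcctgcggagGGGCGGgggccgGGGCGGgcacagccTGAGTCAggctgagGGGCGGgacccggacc
S100a6: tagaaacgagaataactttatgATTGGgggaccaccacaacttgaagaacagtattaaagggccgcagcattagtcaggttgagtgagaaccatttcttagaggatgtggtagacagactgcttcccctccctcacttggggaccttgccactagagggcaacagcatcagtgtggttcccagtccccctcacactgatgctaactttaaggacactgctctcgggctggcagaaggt
The Anxa2 window held 1 match to the AP-1 motif TGANTCA, 32 bases before the annotated gene, and 1 to the GC box, whose letters are GGGCGG. Of all 32851 promoters in the table cut to the same length, 5.14% held an AP-1 match and 22.2% a GC box. The S100a11 window held 2 AP-1 matches, 3 GC boxes and 1 match to the core motif of PU.1, spelled GAGGAA, which 6.64%, 31.6% and 22.5% of promoters of that length held. In the S100a6 window the sole match was 1 box of the CCAAT type on the minus strand, a motif in 32.9% of promoters of its length. The TATA box (TATAAA), the cyclic AMP response element (TGACGTCA), the C/EBP motif (TTGCNNAA), the NF-kB motif and the interferon-stimulated response element had no match in the 3 windows, and none of the motifs overlaps another where it matched. These matches describe the letters and are not measured binding sites.

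Total counts per library ran from 9176202 to 80816742, so that 3 counts stand for 0.0371 to 0.327 CPM (counts per 1000000 counts of a library). BM_day3.1 and BM_day1.3 stood apart with 7609 and 9167 genes at 5 or more counts, and in BM_day3.1 the summed fibroblast markers reached 29248 CPM and the neutrophil markers 3748 CPM. Summed alveolar macrophage markers were 16319 to 29049 CPM in AM libraries, 888 to 1792 CPM in BM day 1, 1784 to 4322 CPM in BM day 3 and 2670 to 14415 CPM in BM day 7, where BM_day7.3 was lowest. Summed monocyte and monocyte-derived macrophage markers were 356 to 3674 CPM in AM and 2700 to 7296 CPM in BM. RNA of Y-linked genes was 148 to 239 CPM in AM days 0, 1 and 3, under 5 CPM in both day 7 groups, 7.20 to 41.3 CPM in BM day 1 and split within BM day 3, so the groups differ in the sex makeup of their RNA. Libraries within AM day 0 differ too. AM_day0.1 held 146 CPM of the sex-linked RNA Xist beside 148 CPM of Y-linked RNA, and AM_day0.2 and AM_day0.3 held 0 CPM of Xist. All BM day 1 and all AM day 0 libraries carry a library-number prefix that no other group has, so batch and group cannot be told apart for these 2 groups.

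Anxa2 was higher in the resident than in the recruited cells on every matched day. Its levels were 2091, 2298 and 2878 CPM in AM day 0, 2247, 2580.2, 2114 and 2066 CPM in day 1, 1725, 1418 and 1888 CPM in day 3 and 1865, 1959, 1911 and 1933 CPM in day 7. BM libraries held 348, 287, 411, 378 and 346 CPM on day 1, 685, 774, 507 and 859 CPM on day 3 and 1099.5, 1134 and 859 CPM on day 7. All 14 AM libraries were above all 12 BM libraries, and the BM levels of the 3 days did not overlap, although BM_day3.4 and BM_day7.3 were both at 859 CPM. In bulk RNA, fewer cells of a type and less RNA per cell cannot be told apart, and this holds for every level below. The log2 fold change of BM against AM (± SE) was −2.74 ± 0.15 on day 1, −1.32 ± 0.17 on day 3 and −0.88 ± 0.17 on day 7. Group means ran in the order AM day 0 (2422 ± 408 CPM, SD), AM day 1, AM day 7, AM day 3, BM day 7, BM day 3 and BM day 1 (354 ± 45.7 CPM), with overlap between AM days 0 and 1 and between AM days 7 and 3.

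S100a10, the partner of Anxa2, showed the same separation of the cell types. It stood at 359, 378 and 545 CPM in AM day 0, 472, 574, 446 and 368 CPM in day 1, 469, 384 and 487 CPM in day 3 and 407, 387, 416 and 374 CPM in day 7. The BM levels were 94.8, 76.5, 70.8, 91.6 and 90.2 CPM on day 1, 287, 288, 236 and 257 CPM on day 3 and 305, 340.1 and 269.9 CPM on day 7. Again each of the 14 AM libraries was above each of the 12 BM libraries, while the AM days overlapped one another. BM day 1 lay below BM days 3 and 7, which overlapped. The log2 fold change of BM against AM was −2.52 ± 0.16, −0.82 ± 0.18 and −0.37 ± 0.18 on days 1, 3 and 7.

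**Figure D1:**
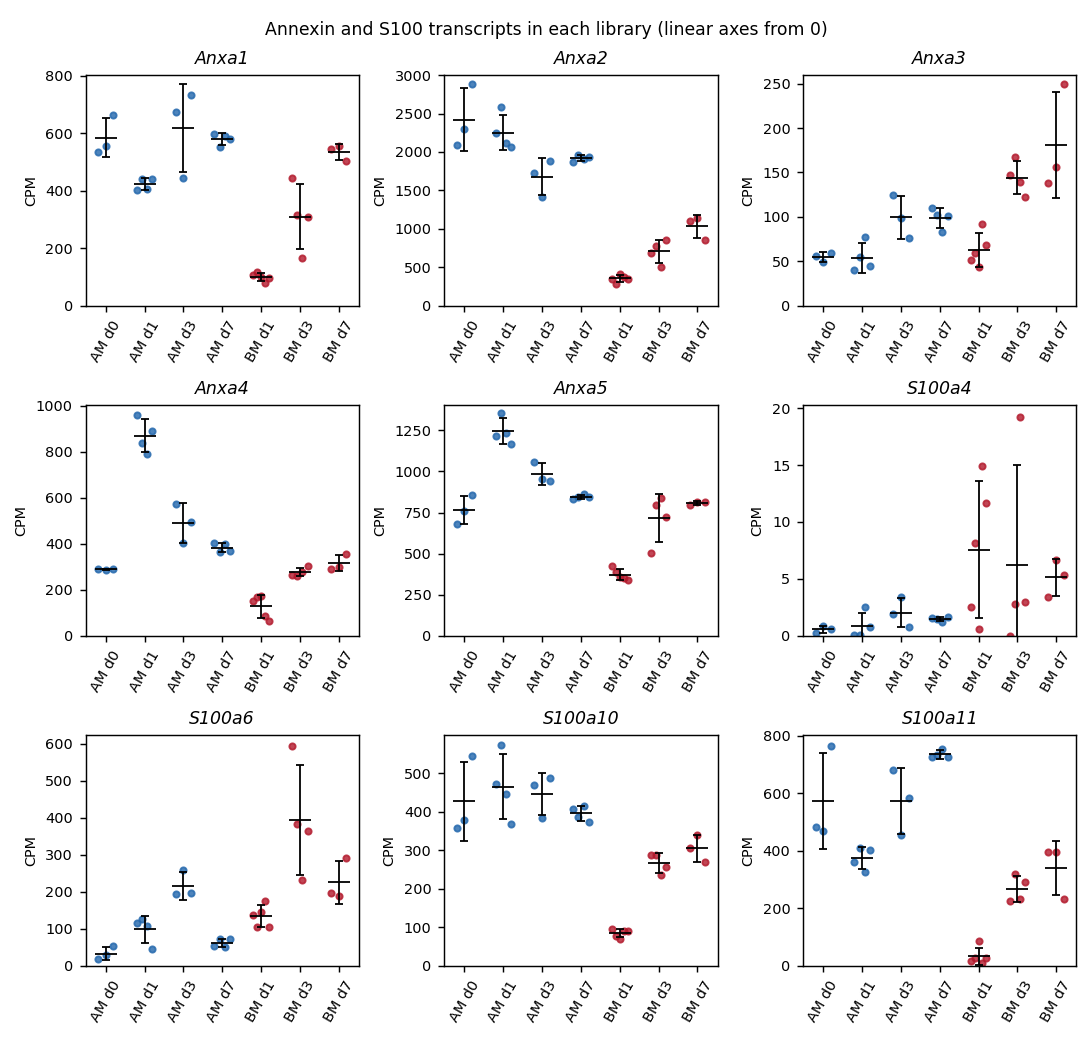
Levels of the 9 members in CPM (counts per 1000000, linear axes from 0) by cell type and day. Points are libraries, bars the mean and whiskers the SD. Anxa2 and S100a10 are higher in all AM (blue) than in all BM (red) libraries, and BM day 1 is the lowest group for Anxa1, Anxa2, Anxa4, Anxa5, S100a10 and S100a11.

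Anxa1, the annexin that acts on formyl peptide receptors, differed between the cell types on day 1 and had overlapping levels by day 7. AM libraries held 536, 554 and 662 CPM on day 0, 401, 439, 406 and 439.9 CPM on day 1, 674, 445 and 733 CPM on day 3 and 597, 551, 588 and 579 CPM on day 7. The BM values were 108, 116, 99.1, 78.3 and 96.7 CPM on day 1, 446, 316, 167 and 309.5 CPM on day 3 and 546, 555 and 503 CPM on day 7. On day 1 the cell types were far apart, on day 3 they met at the edge (BM_day3.1 and AM_day3.2), and on day 7 they overlapped. The log2 fold change of BM against AM was −2.14 ± 0.19, −1.07 ± 0.22 and −0.10 ± 0.22 on these days.

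S100a11, which can pair with Anxa1, had the lowest BM day 1 level relative to AM of the 9 members. It stood at 484, 469.6 and 765 CPM in AM day 0, 361, 409, 326 and 404 CPM in day 1, 681, 455 and 585 CPM in day 3 and 726, 735, 756 and 725 CPM in day 7. BM libraries gave 15.8, 26.6, 86.4, 8.77 and 29.3 CPM on day 1, 227, 318, 234 and 290.4 CPM on day 3 and 396, 395 and 232 CPM on day 7. At each matched day every BM library was below every AM library, by a log2 fold change of −3.59 ± 0.40, −1.17 ± 0.42 and −1.10 ± 0.44. Processed pseudogenes share 41.1% of the 50-base windows of S100a11 transcripts, so its counts are uncertain. Those with reads, Gm12854 and Gm7665, together held 0.552 to 30.8 CPM in BM day 1 and 19.7 to 43.7 CPM in AM day 1. With their counts added to S100a11, the AM day 1 mean was 404 ± 48.2 CPM (SD, n = 4) against 43.0 ± 42.5 CPM (SD, n = 5) in BM day 1, a ratio of 9.40.

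Anxa4 and Anxa5 were highest in AM on day 1 after LPS. Anxa4, which binds membranes in secretory and epithelial cells, held 289, 286 and 292 CPM in AM day 0, 960.3, 839, 793 and 890.1 CPM in day 1, 573, 402 and 494 CPM in day 3 and 403, 364, 399 and 367 CPM in day 7. Its BM levels were 152, 167, 171, 84.9 and 62.9 CPM on day 1, 266, 259.9, 279 and 302 CPM on day 3 and 292, 301 and 356 CPM on day 7. The 4 AM day 1 libraries were above all other 22 libraries. Against day 0 the log2 fold change in AM was 1.67 ± 0.25 on day 1, 0.81 ± 0.25 on day 3 and 0.45 ± 0.24 on day 7, and no library of these days was as low as any of day 0. Between cell types it was −2.83 ± 0.21, −0.90 ± 0.23 and −0.26 ± 0.24 on days 1, 3 and 7, with no overlap on any of the 3 days.

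Anxa5, which binds phosphatidylserine and is used as a probe of dying cells, followed a similar course. AM libraries held 683, 762 and 855 CPM on day 0, 1217, 1355, 1231 and 1169.8 CPM on day 1, 1061, 952 and 942 CPM on day 3 and 831, 842, 863 and 847 CPM on day 7. BM libraries held 424, 388, 355, 353 and 340.1 CPM on day 1, 506, 799, 836 and 724 CPM on day 3 and 795, 814 and 815 CPM on day 7. The AM day 1 libraries were again above all others, at a log2 fold change of 0.77 ± 0.16 over day 0. BM libraries were below AM libraries on each matched day, but the gap narrowed from a log2 fold change of −1.80 ± 0.13 on day 1 to −0.53 ± 0.15 on day 3 and −0.05 ± 0.15 on day 7.

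S100a6 (calcyclin), which binds annexins and the protein CACYBP, had another pattern: its means were highest on day 3 in both cell types and higher in BM than in AM on each matched day. AM levels were 19.1, 28.8 and 53.3 CPM on day 0, 115, 128, 109 and 46.5 CPM on day 1, 193, 259 and 196 CPM on day 3 and 54.6, 72.1, 50.9 and 71.7 CPM on day 7. BM levels were 139, 106, 147, 174 and 106 CPM on day 1, 595, 384, 233 and 364 CPM on day 3 and 197, 189 and 291 CPM on day 7. AM day 3 lay above all other AM libraries, at a log2 fold change of 2.72 ± 0.37 over day 0, and the AM libraries of day 1 and day 7 overlapped. BM and AM overlapped on days 1 and 3 and were apart on day 7, where the log2 fold change was 1.87 ± 0.33. The highest of all was BM_day3.1, the library with the high fibroblast and neutrophil marker sums, and among AM libraries it was AM_day3.2, which had the highest AM sum of monocyte markers (3674 CPM). In BM_day3.1, 2 of the 7 fibroblast markers and 2 of the 11 neutrophil markers had 0 counts. The presence of fibroblasts, neutrophils or monocytes in these libraries, and their part in the S100a6 level, were not tested.

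Anxa3 was low in AM and highest in BM day 7. Its AM levels ranged from 39.6 to 125 CPM, with means of 54.6 ± 5.34 CPM on day 0, 54.0 ± 17.0 CPM on day 1, 99.7 ± 24.2 CPM on day 3 and 98.8 ± 11.3 CPM on day 7 (SD). BM means were 62.8 ± 19.0 CPM on day 1 and 144 ± 18.6 CPM on day 3 (SD). On day 7 the BM libraries (138, 156 and 249.6 CPM) were above the AM libraries (109.8, 102, 83.0 and 100.4 CPM), and on days 1 and 3 the cell types overlapped. S100a4, known from motile monocytes and fibroblasts, was low, at 0.0663 to 3.38 CPM in AM and 0 to 19.2 CPM in BM, with 1 count in AM_day1.1 and in AM_day1.2, 0 in BM_day3.1 and 428 in BM_day3.3. On day 7 it was 3.39, 6.63 and 5.37 CPM in BM and 1.60, 1.44, 1.19 and 1.61 CPM in AM, without overlap. The annotation places 51.7% of the S100a4 exons inside Gm42674 on the same strand, a gene with 0 counts in every library. How reads there were assigned is not given in the sources used here, so the S100a4 level is uncertain.

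Set side by side, 6 of the 9 members were lower in BM than in AM on day 1, by log2 fold changes from −1.80 (Anxa5) to −3.59 (S100a11). The gap was smaller on days 3 and 7 for each of the 6. BM day 1 has a library-number prefix of its own. On that day cell type and batch thus cannot be told apart, for the members or for other genes. At an adjusted p under 0.05 in the fit over 17143 genes, 6 members (Anxa1, Anxa2, Anxa4, Anxa5, S100a10, S100a11) were lower and 0 higher on day 1, where 29.0% of all genes were called (15.2% higher, 13.8% lower). On day 3, 5 members (these without S100a11) were lower and 0 higher, where 3.98% of genes were called (0.997% higher, 2.99% lower). On day 7 Anxa2 was lower and S100a6 higher, where 1.77% of genes were called (0.286% lower, 1.48% higher). The median log2 fold change of the 9 members was −2.14, −0.82 and −0.10 on the 3 days, beside 0.06, −0.07 and 0.03 over all genes tested. For the difference of the BM against AM change between day 7 and day 3, 0 members were called, where 0.362% of genes were (0.338% higher, 0.0233% lower).

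**Figure D2:**
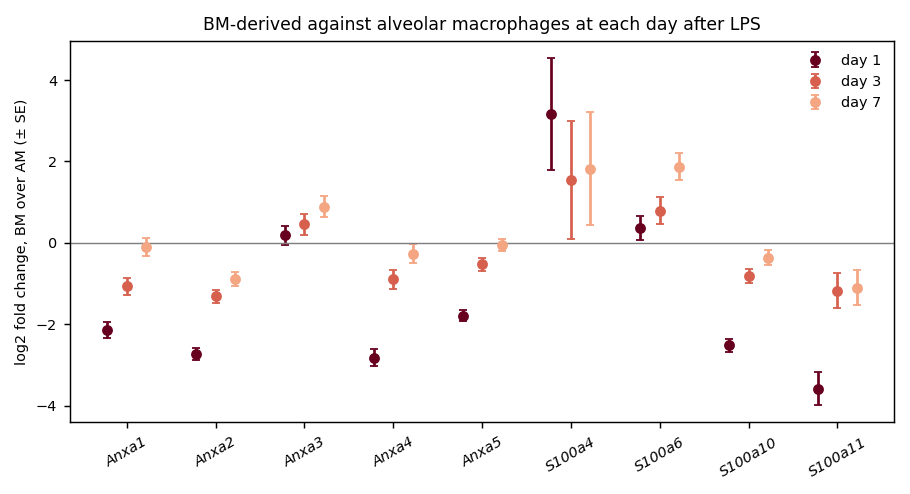
log2 fold change of BM against AM (± SE) for each member on days 1, 3 and 7 after LPS, from the fit over all 26 libraries. Anxa1, Anxa2, Anxa4, Anxa5, S100a10 and S100a11 lie furthest below 0 on day 1, S100a6 lies above 0 and highest on day 7, and S100a4 has the widest errors.

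The day 3 and day 7 contrasts were also read among libraries of like number. On day 3, BM_day3.3 and BM_day3.4 and AM_day3.1 and AM_day3.2 share the higher range of library numbers and have Y-linked RNA. The differences of BM and AM means given here are of log2(CPM + 1), with CPM scaled by TMM factors. Among these 4 libraries the difference was −1.31 for Anxa2, −0.85 for S100a10, −1.33 for Anxa1, −1.16 for S100a11, −0.79 for Anxa4 and −0.43 for Anxa5. Among BM_day3.1, BM_day3.2 and AM_day3.3, which have lower numbers and differ in Y-linked RNA, these 6 were again below 0. For S100a6 the difference was 0.32 in the higher range and 1.20 in the lower, for Anxa3 0.17 and 0.95, and for S100a4 1.27 and 0.09. On day 7 no library had Y-linked RNA above 5 CPM, and BM_day7.3 is the sole BM library in the number range of the 4 AM libraries. Its difference from them was −1.12 for Anxa2, −0.52 for S100a10, −0.17 for Anxa1, −1.63 for S100a11, −0.07 for Anxa4 and −0.02 for Anxa5, and 2.26 for S100a6, 1.37 for Anxa3 and 1.41 for S100a4. BM_day7.3, with the lowest alveolar macrophage marker sum of its group, had the lowest Anxa1, Anxa2, S100a10 and S100a11 and the highest Anxa3, Anxa4, Anxa5 and S100a6 of the 3, and the part of that difference in the group means was not tested.

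Within AM, Anxa4, S100a6 and Anxa5 had the largest log2 fold changes over day 0 on day 1 after LPS, at 1.67 ± 0.25, 1.63 ± 0.34 and 0.77 ± 0.16. On day 1 against day 0, where 6.28% of genes were called (3.22% higher, 3.06% lower), these 3 members were called higher and 0 lower, and the median over the 9 members was 0.19 beside −0.20 over all genes tested. On day 3, where 2.51% were called (1.78% higher, 0.723% lower), S100a6 alone was called higher, and on day 7, where 0.677% were called (0.408% higher, 0.268% lower), 0 members were. Anxa2 had a log2 fold change of −0.03 ± 0.17, −0.49 ± 0.18 and −0.30 ± 0.17 on days 1, 3 and 7 (that of day 1 was 0.00 with DESeq2 size factors), and S100a10 of 0.19 ± 0.18, 0.10 ± 0.19 and −0.07 ± 0.18. S100a11 stood at −0.54 ± 0.42 on day 1 and 0.40 ± 0.43 on day 7, and Anxa1 at −0.40 ± 0.22 and 0.03 ± 0.22. These 3 comparisons share the day 0 libraries, which carry a library-number prefix of their own. LPS and batch thus cannot be told apart in them, for the members or for other genes. The 7 monocyte markers also differed between these groups, with 5 called higher on day 3 and a sum of 356 to 424 CPM on day 0 and 1748 to 3674 CPM on day 3, and their part in the S100a6 level was not tested.

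Within BM, 8 of the 9 members were higher on day 3 than on day 1. All BM day 1 libraries carry a library-number prefix that BM day 3 lacks. Day and batch thus cannot be told apart in this comparison, for the members or for other genes. Y-linked RNA differed as well, at 7.20 to 41.3 CPM on day 1 and 0.0495 to 176 CPM on day 3. S100a11 had the largest log2 fold change (3.00 ± 0.39), followed by S100a10 (1.61 ± 0.16), Anxa1 (1.58 ± 0.19), S100a6 (1.51 ± 0.29), Anxa3 (1.15 ± 0.23), Anxa4 (1.07 ± 0.21), Anxa2 (0.96 ± 0.15) and Anxa5 (0.90 ± 0.13). All 8 were called higher, where 25.9% of genes were called (10.6% higher, 15.2% lower), and S100a4 (−0.34 ± 1.22) was not. The median over the 9 members was 1.15, beside −0.05 over all genes tested. From day 3 to day 7, Anxa1 (0.88 ± 0.22) and Anxa2 (0.63 ± 0.17) were called higher, where 3.98% of genes were (3.09% higher, 0.898% lower). The other values lay between −0.71 for S100a6 and 0.43 for S100a11. The summed alveolar macrophage markers differed between these groups too, at 888 to 1792 CPM on day 1, 1784 to 4322 CPM on day 3 and 2670 to 14415 CPM on day 7, and their part in the member levels was not tested.

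The ratios between the transcripts of partners also differed between groups, and the proteins were not measured. Per kilobase of exon, the Anxa2 level over the S100a10 level was 1.86 ± 0.133 (SD) in AM day 0, 1.59 ± 0.158 in day 1, 1.22 ± 0.0361 in day 3 and 1.58 ± 0.0988 in day 7. In BM it was 1.38 ± 0.289 on day 1, 0.859 ± 0.168 on day 3 and 1.10 ± 0.0684 on day 7, so in both cell types the mean ratio was lowest on day 3. For Anxa1 over S100a11, on the same scale, means in AM were 0.138 to 0.198 and in BM 0.863 ± 0.534 on day 1, 0.208 ± 0.0948 on day 3 and 0.290 ± 0.0786 on day 7. The BM day 1 ratios ranged from 0.201 in BM_day1.3 to 1.57. They leave out the reads of the S100a11 pseudogenes Gm12854 and Gm7665. These held 5.93% to 33.8% of the joint counts in BM day 1 and 5.70% to 9.65% in AM day 1. S100a6 over S100a10 was 0.0471 to 0.597 in AM libraries and 0.492 to 1.84 in BM libraries, which overlap.

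**Figure D3:**
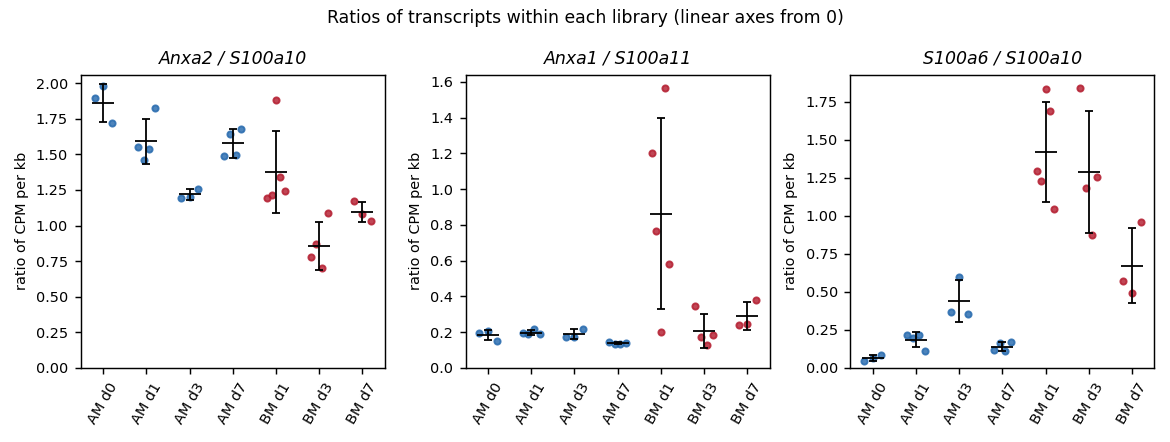
Ratios of 2 transcripts within each library, from CPM per kilobase of exon (linear axes from 0), by cell type and day. Points are libraries, bars the mean and whiskers the SD. Anxa2 over S100a10 has its lowest mean in BM day 3 (0.859), and S100a6 over S100a10 is highest in BM days 1 and 3.

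Across the 26 libraries Anxa1, Anxa2, Anxa4, Anxa5, S100a10 and S100a11 were positively correlated with one another. Pearson's r was taken over log2(CPM + 1), with CPM scaled by TMM factors. It was 0.93 for Anxa2 with S100a10, 0.93 for Anxa1 with S100a11, 0.93 for Anxa4 with Anxa5 and 0.91 for S100a10 with S100a11, the neighbours on chromosome 3. Pairs not described above as partners were about as close, with 0.93 for Anxa1 with S100a10 and 0.92 for Anxa5 with S100a10. S100a6 went with Anxa3 (r = 0.61) and S100a4 (r = 0.31) and had its lowest r with Anxa2 (−0.46). With Anxa1, Anxa4, Anxa5, S100a10 and S100a11 its r was −0.22 to −0.10. With these genes and Anxa2, r was −0.12 to 0.25 for Anxa3 and −0.64 to −0.39 for S100a4. The points share 7 groups and each library's depth and cell makeup, so these values describe the libraries. Of 9651 other genes ranked, those most like Anxa2 over the same libraries were Cyb5r3 (r = 0.963), a cytochrome b5 reductase, the metallothionein Mt1 (r = 0.961) and Mamld1 (r = 0.946). Those most like S100a10 were Tmsb10 (r = 0.974), which encodes an actin-binding thymosin, Ybx1 (r = 0.965), which encodes a nucleic acid-binding protein, and Cyb5a (r = 0.964), which encodes a cytochrome b5.

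**Figure D4:**
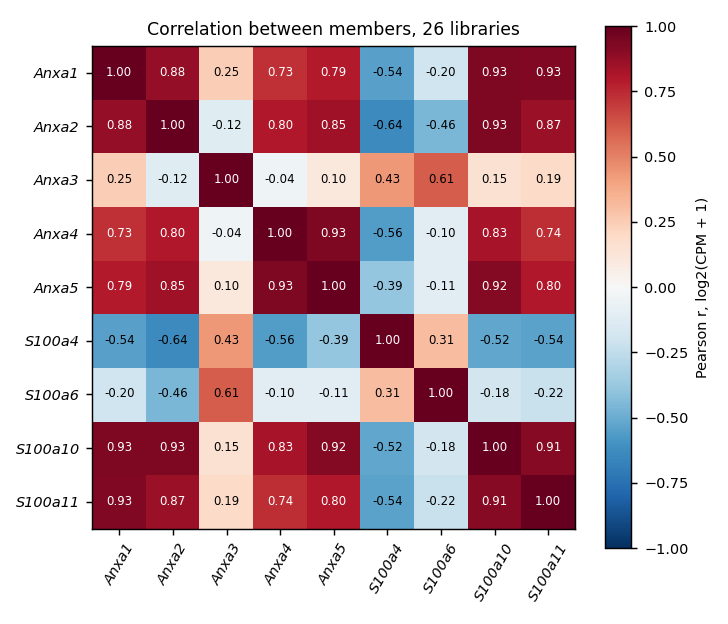
Pearson's r between members over log2(CPM + 1) of the 26 libraries, with CPM scaled by TMM factors. Anxa1, Anxa2, Anxa4, Anxa5, S100a10 and S100a11 are positively correlated with one another (0.73 to 0.93), and S100a6 is closest to Anxa3 (0.61).

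The rest of the pathway was read from 54 other genes in 6 lists (other annexins, other S100 genes, receptors, plasminogen activation, membrane repair and binding partners), of which 44 passed the filter on low counts. They were no part of the rule, though the lists were drawn up with earlier results known. On day 1, 3 of the 44 were higher and 19 lower in BM than in AM (29.0% of all genes called), with a median log2 fold change of −0.63. Among the receptors of Anxa1, Fpr1 was lower in BM, at 81.7 ± 34.2 CPM (SD, n = 5), than in AM, at 235 ± 34.9 CPM (SD, n = 4; log2 fold change ± SE −1.59 ± 0.33, adjusted p = 6.8e-04). Fpr2 was lower too, at 137 ± 54.3 CPM in BM and 462 ± 209 CPM in AM (−1.83 ± 0.40, adjusted p = 0.0014). In plasminogen activation, the urokinase receptor gene Plaur (−0.80 ± 0.15, adjusted p = 2.4e-04) was lower in BM. The plasminogen receptor gene Plgrkt (−0.78 ± 0.29, adjusted p = 0.043) lost its call in 14 of 35 alternatives, among them without any one of AM_day1.1 (0.082), AM_day1.2 (0.074), AM_day1.3 (0.074), AM_day1.4 (0.073), AM_day7.3 (0.063), BM_day1.1 (0.09), BM_day1.2 (0.066), BM_day1.3 (0.096) or BM_day1.4 (0.1, each an adjusted p).

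Other family members and partners divided on day 1. S100a1 was lower in BM (8.49 ± 11.2 CPM) than in AM (137 ± 26.5 CPM; −4.09 ± 0.78, adjusted p = 4.5e-04), as was S100a13 (9.83 ± 9.20 against 65.3 ± 37.7 CPM; −2.80 ± 0.68, adjusted p = 0.003). Anxa7 was lower (−1.16 ± 0.21, adjusted p = 1.1e-04) and Anxa6 higher (1.02 ± 0.22, adjusted p = 7.9e-04). Plscr1, a phospholipid scramblase, had the largest difference among binding partners (−3.03 ± 0.32, adjusted p = 4.6e-08). The genes of partners of S100a6, Cacybp (−1.57 ± 0.29, adjusted p = 1.5e-04) and Sugt1 (−1.74 ± 0.23, adjusted p = 2.4e-06), and Sri, which encodes the Anxa7-binding sorcin (−1.16 ± 0.23, adjusted p = 4.4e-04), were also lower. Ahnak, a giant scaffold bound by Anxa2 and S100a10, went the other way, at 2882 ± 462 CPM in BM and 874 ± 185 CPM in AM (1.67 ± 0.18, adjusted p = 5.6e-08), as did the myosin gene Myh9 (0.77 ± 0.16, adjusted p = 5.8e-04). Of the membrane repair genes, Chmp4b (−1.05 ± 0.17, adjusted p = 2.6e-05), Pdcd6 (−0.90 ± 0.24, adjusted p = 0.0057) and Capns1 (−0.73 ± 0.15, adjusted p = 4.3e-04) were lower. Summed endothelial markers were 143 to 410 CPM in BM day 1 and 0 to 19.2 CPM in AM day 1 (1 of 5 called higher). Summed neutrophil markers were 585 to 1502 CPM in BM day 1 and 103 to 556 CPM in AM day 1 (3 of 11 called higher). The part of both in these differences was not tested.

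**Figure D5:**
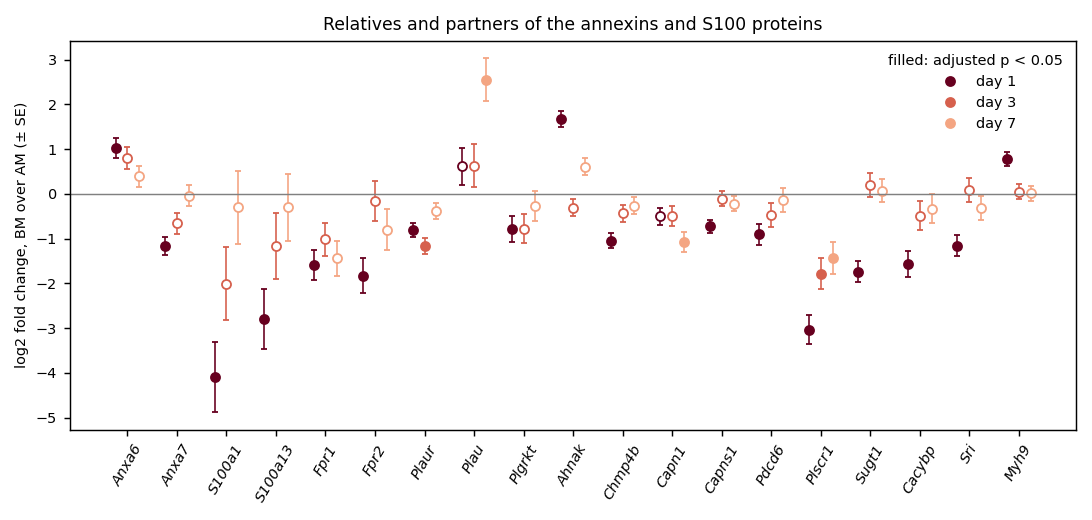
log2 fold change of BM against AM (± SE) on days 1, 3 and 7 for relatives and partners of the members, filled where the adjusted p was under 0.05. Most filled points are on day 1 and below 0, Ahnak, Anxa6 and Myh9 are above 0 on day 1, and Plau is above 0 on day 7.

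Fewer of these genes were called on day 3 and day 7 than on day 1. In the same F tests, 25 of 44 had an unadjusted p under 0.05 on day 1, 16 on day 3 and 9 on day 7. On day 3, 3 of 44 were called, each lower in BM (3.98% of all genes called). Among them were Plaur (247 ± 38.8 CPM in BM, 527 ± 57.3 CPM in AM, −1.17 ± 0.17, adjusted p = 2.6e-04) and Plscr1 (−1.79 ± 0.35, adjusted p = 0.0041). On day 7, 1 was higher and 2 lower (1.77% of all genes called). Plau, the gene of urokinase, the activator of plasminogen, was higher in BM (84.0 ± 24.5 CPM) than in AM (14.4 ± 4.34 CPM; 2.55 ± 0.48, adjusted p = 0.0018). The calpain gene Capn1 (−1.08 ± 0.23, adjusted p = 0.0068) was lower, with an adjusted p of 0.083 without BM_day7.3. Plscr1 (−1.44 ± 0.36, adjusted p = 0.03) was lower, but its adjusted p was 0.25 without BM_day7.3, 0.056 without BM_day7.1, 0.087 without AM_day7.2 and 0.07 without AM_day7.3 or AM_day7.4. For the difference of the change between day 7 and day 3, 0 of the 44 genes were called by edgeR, 0 by DESeq2, and 6 had an unadjusted p under 0.05.

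Within AM, 4 of the 44 genes rose and 5 fell on day 1 after LPS (6.28% of all genes called). The calprotectin genes S100a8 (3.74 ± 0.768 CPM on day 0, 103 ± 62.6 CPM on day 1, 4.87 ± 0.78, adjusted p = 2.6e-04) and S100a9 (7.30 ± 1.67, adjusted p = 0.0085) rose, and S100a8 was still higher on day 3 (4.70 ± 0.79, adjusted p = 6.6e-04). Both are among the 11 neutrophil markers, of which 3, with these genes among them, were called higher. The marker sum was 78.7 to 95.6 CPM on day 0 and 103 to 556 CPM on day 1. This sum includes S100a8 and S100a9, which held 175 and 266 CPM in AM_day1.2 (sum 556 CPM). In AM_day1.4 (sum 103 CPM) they held 34.5 and 26.6 CPM. Ly6g was at 0 in AM day 0 and Camp at 0 in both groups. The part of neutrophils in these rises was not tested. S100a9 had an adjusted p of 0.072 without AM_day0.1 and 0.079 without AM_day0.2. Anxa6 (−1.07 ± 0.24, adjusted p = 0.0047), Capn2 (−0.93 ± 0.22, adjusted p = 0.0067), Capn1 (−0.82 ± 0.22, adjusted p = 0.022) and Myh9 (−0.86 ± 0.18, adjusted p = 0.0022) fell, as did Ahnak (−0.65 ± 0.19, adjusted p = 0.04), named after its values were seen. Ahnak lost its call in 10 of 35 alternatives, among them without AM_day0.1 (0.15), AM_day0.2 (0.31), AM_day1.1 (0.054), AM_day1.2 (0.14), AM_day1.4 (0.076) or AM_day7.2 (0.05, each an adjusted p). The rises of Fpr2 (1.63 ± 0.47, adjusted p = 0.039) and Chmp4b (0.64 ± 0.19, adjusted p = 0.044) lost their call in 12 and 24 of 35 alternatives, and without any one library of day 0 Fpr2 had an adjusted p of 0.12 to 0.18, Chmp4b of 0.087 to 0.18 and Capn1 of 0.051 to 0.1. Without any one of AM_day1.1, AM_day1.2 or AM_day1.3, Capn1 had 0.051 to 0.069. On day 3, 1 gene rose and 2 fell (2.51% of all genes called), and Capn1 (−0.89 ± 0.24, adjusted p = 0.04) and Myh9 (−0.76 ± 0.19, adjusted p = 0.026) had an adjusted p of 0.17 and 0.19 without AM_day0.1, of 0.11 and 0.2 without AM_day0.2, of 0.23 and 0.22 without AM_day3.1 and of 0.25 and 0.089 without AM_day3.2. On day 7 Plau alone fell (−1.98 ± 0.47, adjusted p = 0.043; 0.677% of all genes called), with an adjusted p of 0.48 without AM_day0.3 and a call in 13 of 35 alternatives.

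Within BM, 8 of the 44 genes rose and 5 fell from day 1 to day 3 (25.9% of all genes called). Sugt1 (1.54 ± 0.23, adjusted p = 2.7e-05), Sri (1.40 ± 0.23, adjusted p = 9.2e-05), Fpr2 (1.49 ± 0.40, adjusted p = 0.01), Capns1 (0.71 ± 0.15, adjusted p = 0.001) and S100a1 (2.37 ± 0.74, adjusted p = 0.025) rose with the members. Ahnak fell from 2882 ± 462 to 812 ± 50.4 CPM (−1.87 ± 0.18, adjusted p = 3.4e-08), Plaur from 664 ± 79.2 to 247 ± 38.8 CPM (−1.47 ± 0.16, adjusted p = 2.4e-07) and Myh9 by a smaller amount (−0.62 ± 0.16, adjusted p = 0.0065). Plscr1 (0.81 ± 0.30, adjusted p = 0.049) was called higher here but not in 27 of 35 alternatives. The other calls, in which libraries of the 2 days overlapped and which were named after their values were seen, were Serpine2 and Tsg101 (higher) and Plau and S100g (lower). The call of Plau was lost in 23 of 35 alternatives. From day 3 to day 7, 3 rose and 1 fell (3.98% of all genes called). Plaur was among those that rose (1.55 ± 0.17, adjusted p = 6.6e-06), as was Ahnak (0.89 ± 0.19, adjusted p = 0.0063, 0.081 without BM_day7.3). S100a8 fell (−2.75 ± 0.70, adjusted p = 0.028). Its adjusted p was 0.13 without BM_day3.1, 0.15 without BM_day7.1 and 0.14 without BM_day7.2. BM_day3.1 had the highest neutrophil marker sum, which includes S100a8.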

How the data were processed

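The values are counts of reads per gene, which the authors deposited for 26 libraries. Per the labels' protocols, the libraries were stranded and poly(A)-selected. Per the submitters' processing notes, the tools were FastQC 0.11.9, Trimmomatic 0.39, HISAT2 2.1.0 and featureCounts 2.0.0 with build GRCm38. Settings, annotation release and strand setting are not given in the sources used here. Symbols and exon lengths came from GENCODE M21.

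CPM is a count per 1000000 counts of its library. For the correlations and the differences among libraries of like number it was also scaled by TMM factors. 1 model over the 7 groups was made with edgeR 4.0.16 (limma 3.58.1, R 4.3.3), using TMM factors, genes that passed filterByExpr at a minimum count of 10, and quasi-likelihood F tests with robust dispersion. This left 17143 genes, all 9 members among them. Adjustment was by the Benjamini-Hochberg method over those 17143, separately for 9 contrasts, and a call is an adjusted p under 0.05. The fit was also run on simulated counts with the same dispersion for all genes, a simpler setting than these libraries. The outcome is not reported here, and nothing about the calls is read from it. The members and the lists were chosen with earlier results of these data known. Beside the 9 members, the genes named are, per list and comparison, up to 4 called genes that changed most, averaged 5 CPM or more in the higher group and did not overlap, the most abundant gene of each list, and the 3 genes most like Anxa2 and the 3 most like S100a10. Alternatives were 10 other settings, DESeq2 1.42.0 among them, and leaving out each library in turn. Columns of samples that are not listed numbered 0. Values of 1 listed gene are not reported here.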

Additional observations from a re-analysis of the deposited data

Results flagged for a closer look

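In 36 member-by-group sets of 4 or 5 libraries, the extreme library was set against the rest by Dixon's criterion, which chance meets in about 1 of 20 sets, and 2 sets met it. S100a4 stood at 19.2 CPM in BM_day3.3, where the other BM day 3 libraries held 0 to 2.99 CPM. S100a11 stood at 86.4 CPM in BM_day1.3, where the other BM day 1 libraries held 8.77 to 29.3 CPM, and BM_day1.3 is also a library with few genes detected (9167) and with 29.7 CPM of the S100a11 pseudogene Gm12854.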

How the results depend on the processing

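Of 765 member log2 fold changes under the other settings, 740 moved by less than 1 SD and 21 changed sign. Of 2106 with 1 library left out, 2096 moved by less than 1 SD and 26 changed sign. None of those that changed sign had passed the threshold. These counts are of fold changes alone, and whether the calls of members held under the alternatives was not examined. With 1 library left out, the largest moves were those of S100a4 without BM_day3.3, such as from 1.54 to −0.13 for BM against AM on day 3, and it went from 0.60 to −0.73 on day 1 in AM without AM_day1.3. The labels do not say that equal numbers pair the samples. Same-numbered libraries of different groups had correlations of their deviations between −0.113 and 0.0928, and differently numbered ones between −0.137 and 0.162. These ranges cannot show whether libraries were paired, so the replicate block stands for the number alone.

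Counts of genes called moved with the setting, and the cause was not tested. For BM against AM on day 1 (4969) the block on description numbers gave 1955. On day 3 (683) DESeq2 gave 1834, no filter 398, the compared groups alone 6, the Y-linked level as a covariate 273 and leaving out BM_day3.1 and BM_day1.3 gave 1059. On day 7 (303) DESeq2 gave 604, the compared groups alone 2948 and leaving out those 2 libraries 612. For AM day 1 against day 0 (1077) these 3 settings gave 2051, 1862 and 2425, for day 3 (430) 937, 2327 and 838, and for day 7 (116) 341, 2578 and 219, with 37 under the Y-linked covariate. For BM day 3 against day 1 (4432) the compared groups alone gave 1117, the replicate block on title numbers 2500 and that on description numbers 1157. For BM day 7 against day 3 (683) DESeq2 gave 1496 and the compared groups alone 41. For the difference between days (62) DESeq2 size factors gave 40, DESeq2 600, no filter 36, the compared groups alone 323, the replicate block on title numbers 21, the Y-linked covariate 18 and leaving out the 2 libraries 104.

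Of the 44 companion genes, on day 1 (22) the block on description numbers called 14. On day 3 (3) DESeq2 called 7, the compared groups alone 0, the library number range as a term 5 and leaving out the 2 libraries 6. On day 7 (3) DESeq2 called 5 and the compared groups alone 12. For AM day 3 against day 0 (3) the counts were 6 with DESeq2, 12 with the compared groups alone, 1 with the replicate block on title numbers and 5 without the 2 libraries. For AM day 7 (1) they were 3, 16, 0 and 2 in the same order, and 0 with description numbers. For BM day 3 against day 1 (13) they were 5 with the compared groups alone and 8 with the replicate block on title numbers. For BM day 7 against day 3 (4) they were 2 without a filter and 1 with the compared groups alone. For the difference (0) they were 1 with the compared groups alone, 1 with description numbers and 1 with the library number range.

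Leaving out 1 library gave 225 to 978 genes and 2 to 5 companions on day 3 (lowest without AM_day3.3), 200 to 463 and 1 to 4 on day 7 (lowest without BM_day7.3), 558 to 1732 and 4 to 11 for AM day 1 (lowest without AM_day0.1), 264 to 639 and 1 to 5 for AM day 3, 56 to 163 and 0 to 2 for AM day 7, 308 to 876 and 2 to 5 for BM day 7 against day 3 (lowest without BM_day7.1), and 17 to 115 genes for the difference. Of 46 calls that the rule for named genes chose, 21 held in every alternative and 25 ended in at least one. Both counts, and the counts of alternatives in which a call was lost, include the block on description numbers. That block leaves 1 library to set the BM day 1 level. The compared groups alone gave adjusted p-values of 0.081 for S100a13 on day 1, 0.067 for Plaur and 0.056 for Plscr1 on day 3, and 0.38 for S100a1, 0.051 for Fpr2 and 0.085 for Capns1 in BM day 3 against day 1. They gave 0.074 for Plscr1 on day 7, 0.06 for Myh9 in AM day 1 and 0.1 for Ahnak in BM day 7 against day 3. Description numbers as a block gave 0.069 for Plscr1 on day 7. No filter gave 0.054 for Pdcd6 on day 1 and 0.057 for S100a1 in BM day 3 against day 1, title numbers 0.051 for the latter, the library number range 0.12 for Capn1 on day 7 and the Y-linked covariate 0.052 for Plscr1 on day 3. By counting alone, the 0 counts of S100a4 in BM_day3.1 allow a level of up to 0.264 CPM. This bound does not cover reads that may have been lost where S100a4 exons lie inside Gm42674.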
